A study of Homo sapiens with 2 samples.

Results

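The SR proteins, heterogeneous nuclear ribonucleoproteins (hnRNPs) and related splicing regulators were followed as a set of 55 genes taken from a written list of symbols, each looked up in the gene and transcript tables of both libraries. Of the 55 genes, 54 had a value of good status in both libraries, out of 28610 named genes with such values. The exception was HNRNPF, whose estimate failed in replicate 2. The list held 10 SR proteins, 2 TRA2 proteins, 15 hnRNPs and 3 PTB proteins. It also held 13 regulators listed as cell-type-restricted, 6 splice site recognition factors or SR-related matrix proteins, and 6 SR protein kinases.

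The RNA came from untreated cells of a recombinant U2OS line. U2OS is a human line derived from an osteosarcoma. The recombinant cells carry the G1S-CCPM reporter of the cell cycle and stably make the nuclease Cas9 from a CAG promoter, and both libraries share these alterations. The labels spell the reporter both G1S-CCPM and G1S-CCMP. The medium of both held geneticin, a selection drug, at 500 µg/mL. There was 1 group of 2 replicate libraries, so the design held no contrast between conditions and no p-value was computed. Whether the replicates came from separate cultures is not labelled, and their spread may be technical. Levels are in FPKM, fragments per kilobase scaled to the mapped fragments, a unit per length that allows genes to be set side by side within a library. The absolute depth is unknown, and the read coverage that 1 FPKM stood for was alike in both libraries, with medians of 5.78 and 5.57 for replicates 1 and 2. All 7 bone and mesenchymal markers, those of the labelled tissue, stood at 1 FPKM or more in both libraries, as did 2 of 4 epithelial and 3 of 8 neuronal markers, while all 4 haematopoietic, all 3 endothelial and all 4 muscle markers stayed under 1.

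SR proteins bind exonic enhancers through RNA recognition motifs and use an arginine- and serine-rich domain to bring the splicing machinery to nearby splice sites. The hnRNPs coat nascent transcripts and often act at silencers, so the balance of both classes shapes which exons are kept. Many of these genes control their own output by alternative splicing: an exon that carries an early stop codon is included, and the resulting RNA is a target of nonsense-mediated decay. SR protein kinases of the SRPK and CLK families phosphorylate the arginine- and serine-rich domain and set where SR proteins reside in the nucleus.

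For some of the genes, reference transcripts shared both ends and differed in length by exactly 1 cassette exon of the GENCODE 29 annotation. The 6 genes taken up here are a choice and no count of the genes with such pairs. From them, 7 such exons, chosen after their values were seen, are described. Their sequences are printed because the transcript levels reported further on turn on them. They are read 5′ to 3′ from the spliced GENCODE 29 transcripts (GRCh38), in the sense of the gene. The first pair holds exons of SRSF3 and SRSF6 that carry an early in-frame stop, which is in capitals, and each is shown from its first base to that stop. The exon lies at chr6:36599821-36600276 (plus strand) in SRSF3 and at chr20:43459153-43459420 (plus strand) in SRSF6, and the transcripts that hold them are annotated as nonsense-mediated decay targets.
SRSF3 exon of 456 bases, to its stop: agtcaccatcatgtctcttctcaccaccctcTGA
SRSF6 exon of 268 bases, to its stop: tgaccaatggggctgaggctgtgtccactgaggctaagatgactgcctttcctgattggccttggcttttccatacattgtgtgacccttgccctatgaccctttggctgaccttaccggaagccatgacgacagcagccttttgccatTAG

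The stop began at base 32 of the SRSF3 exon and at base 150 of the SRSF6 exon. The other exons lie whole within an annotated coding sequence and are in capitals, between bases of the neighbouring exons in lower case. The MBNL2 exon is in 2 GENCODE transcripts, of which the one it was read from is annotated as a nonsense-mediated decay target. They map to chr4:82371528-82371584 and chr4:82356537-82356683 (minus strand) for HNRNPD, chr3:152455542-152455577 (plus strand) for MBNL1, chr13:97356796-97356849 (plus strand) for MBNL2 and chr2:200860125-200860215 (minus strand) for CLK1.
HNRNPD exon of 57 bases: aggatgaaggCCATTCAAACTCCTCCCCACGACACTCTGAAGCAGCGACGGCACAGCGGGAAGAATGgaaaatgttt
HNRNPD exon of 147 bases: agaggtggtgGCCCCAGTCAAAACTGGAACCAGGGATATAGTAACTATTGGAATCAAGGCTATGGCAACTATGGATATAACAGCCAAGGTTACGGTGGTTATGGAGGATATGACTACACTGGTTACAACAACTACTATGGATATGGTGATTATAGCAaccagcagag
MBNL1 exon of 36 bases: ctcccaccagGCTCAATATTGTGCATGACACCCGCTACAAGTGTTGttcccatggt
MBNL2 exon of 54 bases: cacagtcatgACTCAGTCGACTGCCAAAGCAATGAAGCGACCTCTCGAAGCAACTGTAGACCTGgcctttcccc
CLK1 exon of 91 bases: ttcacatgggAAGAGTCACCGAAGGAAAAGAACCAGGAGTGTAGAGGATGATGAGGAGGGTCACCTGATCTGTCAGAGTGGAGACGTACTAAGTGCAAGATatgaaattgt

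Most of the set was present at high levels. Taking 1 FPKM in both libraries as detection, 48 of the 54 genes were detected, where 59.2% of all protein-coding genes and 41.1% of all named genes were. The median of the detected members' mean levels was 48.0 FPKM, against 12.2 FPKM over the detected protein-coding genes. A mean of 100 FPKM or more was reached by 16 members and by 661 of the 11210 detected protein-coding genes (5.90%). Together the 54 members held 0.919% (replicate 1) and 1.05% (replicate 2) of the FPKM of all named genes.

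**Figure D1:**
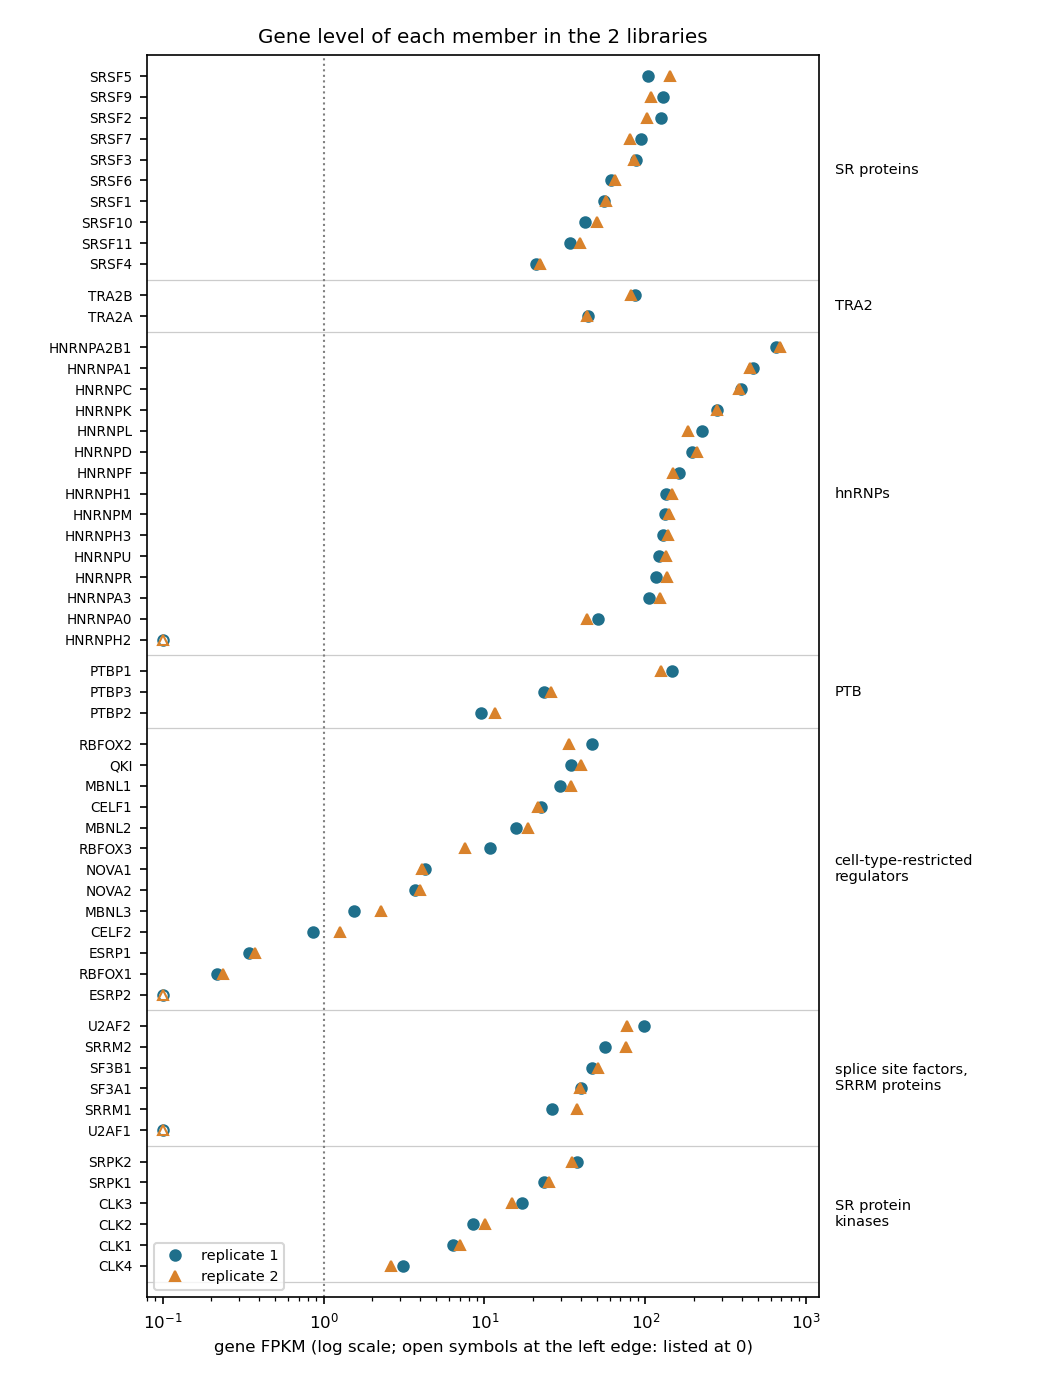
Gene FPKM (x axis, log scale) of each of the 55 members in replicate 1 (circles) and replicate 2 (triangles), grouped by role and ordered by mean. The dotted line marks 1 FPKM, the hnRNPs reach highest with HNRNPA2B1 at 650.1 and 689 FPKM, and the open symbols at the left edge are HNRNPH2, ESRP2 and U2AF1, which were listed at 0 in both libraries.

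All 10 SR proteins were detected, from 21.4 FPKM for SRSF4 to 123 FPKM for SRSF5 as means of the 2 libraries. SRSF5, an SR protein with a pair of RNA recognition motifs, was at 103 FPKM in replicate 1 and 142 in replicate 2 (123 ± 27.3, SD, n = 2). SRSF9 was at 128 and 108 FPKM. SRSF2, which carries a single recognition motif and stays in the nucleus, was at 126 and 103. These 3 formed the top of the class, and their order changed between the libraries: SRSF9 led in replicate 1 and SRSF5 in replicate 2. SRSF2 lies across MFSD11 on the opposite strand, a gene at 19.9 and 14.5 FPKM, and SRSF9 overlaps GATC on the opposite strand. Whether strand was used in the quantification is not given in the sources used here.

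SRSF7 was at 93.5 FPKM in replicate 1 and 80.0 in replicate 2. For SRSF3, the smallest of the family and a factor in RNA export as well, the values were 87.9 and 84.7 FPKM. These paralogs were the only pair of the 31 paralog pairs compared whose order changed between the libraries. SRSF6 was at 61.0 and 65.1 FPKM, and SRSF1, the founding member of the family, at 55.7 and 57.2. In the subfamily of SRSF4, SRSF5 and SRSF6, SRSF5 was highest, 1.69 times SRSF6 in replicate 1 and 2.18 times in replicate 2. SRSF9 stood 2.31 and 1.89 times above its paralog SRSF1.

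The lowest levels of the class belonged to SRSF10 (42.4 and 50.1 FPKM), which acts as a repressor when dephosphorylated, SRSF11 (34.1 and 39.3) and SRSF4 (20.8 and 22.1). The TRA2 proteins bind GA-rich exonic enhancers and are SR-like. TRA2B was at 86.2 FPKM in replicate 1 and 82.0 in replicate 2, and TRA2A at 43.8 and 43.3. TRA2B was thus 1.97 and 1.89 times as high as TRA2A, with deposited confidence bounds that did not overlap in either library.

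The hnRNPs held the highest levels of the set. HNRNPA2B1 was at 650.1 FPKM in replicate 1 and 689 in replicate 2 (670 ± 27.7, SD, n = 2), and it ranked 102nd of the 28610 named genes by mean level. HNRNPA1, the paralog with which it shares silencer motifs, was at 468 and 449 FPKM. HNRNPC, which binds uridine tracts as a tetramer, stood at 391 and 382. HNRNPK, a KH-domain protein that binds cytidine-rich RNA, was at 281 and 278, and its span holds MIR7-1 on the same strand. Within the A/B family the order was HNRNPA2B1, HNRNPA1, HNRNPA3 and HNRNPA0 in both libraries. HNRNPA3 was at 106 and 123 FPKM and HNRNPA0, encoded by a single-exon gene, at 50.6 and 43.5.

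HNRNPL, a reader of CA repeats, was at 224 FPKM in replicate 1 and 183 in replicate 2, the largest SD among the hnRNPs (203 ± 28.6, SD, n = 2). HNRNPD, also called AUF1 and known for binding AU-rich elements, was at 194 and 209. Between 116 and 147 FPKM in both libraries lay HNRNPH1 (135 and 147), HNRNPM (132 and 140.0), HNRNPH3 (128 and 138), HNRNPU (121 and 134) and HNRNPR (116 and 136). These 5 were all somewhat higher in replicate 2. HNRNPF, a reader of G-runs like its paralog HNRNPH1, was at 162 FPKM in replicate 1. Its replicate 2 value of 148 FPKM carries a failed status with an upper bound of 4.96, below the value itself, so it stayed out of the counts and out of the order of paralogs.

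HNRNPH2 was listed at 0 in both libraries and could not be read on its own. Its locus on the X chromosome was merged with RPL36A and the read-through gene RPL36A-HNRNPH2. The read-through transcript was at 46.7 FPKM in replicate 1 and 58.6 in replicate 2, and RPL36A, a ribosomal protein gene, at 627 and 608. How these estimates divide the reads of HNRNPH2 was not tested.

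The PTB proteins repress exons through pyrimidine-rich motifs, and PTBP2 is best known from neurons. PTBP1 was at 146 FPKM in replicate 1 and 126 in replicate 2. PTBP3 was at 23.4 and 26.1 FPKM, and PTBP2 at 9.55 and 11.7. PTBP1 was thus 6.22 and 4.81 times as high as PTBP3, and the 3 paralogs kept 1 order in both libraries.

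Among the 13 regulators listed as cell-type-restricted, 9 were detected in both libraries. The list also holds broadly found genes such as RBFOX2, so this count does not measure how many restricted regulators were present. RBFOX2, a reader of GCAUG motifs found in many tissues, was at 46.9 FPKM in replicate 1 and 33.7 in replicate 2. RBFOX3, the neuronal nuclear antigen NeuN, was at 10.8 and 7.62, and RBFOX1, of brain and muscle, at 0.218 and 0.236. RBFOX2 was at 4.34 times the RBFOX3 level in replicate 1 and 4.42 times in replicate 2. On reference transcripts alone it was at 3.26 and 1.32 times that level, since much of the RBFOX2 level in replicate 2 lay in assembled transcripts. Assembled transcripts also held 30.9% of the RBFOX3 level in replicate 2, where its reference transcripts summed to 5.27 FPKM. Of the 8 neuronal markers, 3 were at 1 FPKM or more in both libraries, namely TUBB3 (61.3 and 41.9), NEFL (25.0 and 24.4) and SNAP25 (1.31 and 1.85). The other 5 (STMN2, SYP, GAP43, ELAVL4 and ELAVL3) lay under 1 FPKM. The summed level of the list was 89.7 FPKM in replicate 1 and 69.9 in replicate 2, and its relation to RBFOX3 was not tested.

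The muscleblind proteins, which promote adult splicing patterns in muscle and other tissues, formed a falling order of MBNL1 (29.4 and 34.4 FPKM), MBNL2 (15.7 and 18.6) and MBNL3 (1.54 and 2.28). QKI, a STAR-family protein known from myelinating glia and from mesenchymal cells, was at 34.7 and 40.05 FPKM. CELF1 was at 22.5 and 21.6 FPKM, and its paralog CELF2 at 0.858 and 1.26, so CELF2 passed 1 FPKM in replicate 2 alone. Assembled transcripts held 29.3% of the CELF1 level in replicate 1, where its reference transcripts summed to 15.9 FPKM. CELF1 spans PTPMT1 on the opposite strand. The NOVA proteins, readers of YCAY clusters named from neurons, had similar locus levels, with NOVA1 at 4.26 and 4.11 FPKM and NOVA2 at 3.68 and 3.97. Their bounds overlapped in both libraries. All of the NOVA2 level in replicate 1 and 41.0% of it in replicate 2 came from assembled transcripts. On reference transcripts alone NOVA1 was at 2.66 and 4.11 FPKM, and NOVA2 was listed at 0 in replicate 1 and at 2.35 in replicate 2.

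Of the epithelial regulators, ESRP1 was at 0.346 FPKM in replicate 1 and 0.373 in replicate 2. ESRP2 was listed at 0 in both, which gives it no place in the order of levels, at a locus that overlaps NFATC3 (18.4 and 20.7 FPKM) on the opposite strand. Of the 4 epithelial markers, EPCAM was at 12.0 and 13.8 FPKM and CDH1 at 2.36 and 1.17, while KRT5 was under 1 and GRHL2 was listed at 0.

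Splice site recognition depends on U2AF at the polypyrimidine tract and 3′ splice site and on the SF3 complexes of the U2 snRNP at the branch point. U2AF2, the large U2AF subunit, was at 98.2 FPKM in replicate 1 and 76.7 in replicate 2. SF3B1 was at 46.8 and 51.0 FPKM and SF3A1 at 39.8 and 39.4. The matrix proteins SRRM1 and SRRM2 bridge SR proteins and snRNPs. SRRM2 was at 55.9 and 76.0 FPKM and SRRM1 at 26.3 and 37.8, and both were higher in replicate 2 with bounds apart.

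U2AF1, the small U2AF subunit that reads the AG of the 3′ splice site, was listed at 0 in both libraries over its 3 reference transcripts. It lies on chromosome 21 from 43092956 to 43107578 (GRCh38), and a near-identical copy, U2AF1L5, lies on the same chromosome from 6484623 to 6499284. The longest pair of equally long GENCODE 29 transcripts of the 2 genes differed at 2 of 1675 bases. The copy's 3 reference transcripts were listed at 0 as well. Within its span, replicate 2 held 1 assembled piece of 120 bases at 48.8 FPKM, and nothing was assembled at U2AF1 in either library. Whether reads shared by the copies bear on the listed 0 was not tested. Since such a 0 may reflect an estimate that failed, it is not read as absence of U2AF1.

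The kinases were all detected. SRPK2, which overlaps KMT2E on the opposite strand, was at 37.4 FPKM in replicate 1 and 35.2 in replicate 2. SRPK1 was at 23.4 and 25.3. SRPK1 and SRPK2 act mainly in the cytoplasm, where they promote nuclear import of SR proteins. The CLK kinases release SR proteins from nuclear speckles, and their levels fell in the order CLK3 (17.0 and 14.8 FPKM), CLK2 (8.55 and 10.2), CLK1 (6.35 and 7.06) and CLK4 (3.12 and 2.64). Of the CLK4 level, 64.8% in replicate 1 and 43.4% in replicate 2 came from transcripts assembled at the locus rather than from the reference.

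Among 13 paralog families with at least 2 usable members, 12 had the same order of levels in both libraries. HNRNPF (failed) and HNRNPH2 and ESRP2 (listed at 0) were left out of this order. Of 30 pairs with bounds in both libraries, the higher paralog's bounds lay above those of the lower in 27 pairs in each library.

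Between the libraries the members stayed close. A gene was counted as differing when log2 of (FPKM + 1) changed by at least 1 and the deposited bounds lay apart, and 0 of 49 members did so, against 1.16% of the 12405 genes that reached 1 FPKM in either library. That background share would amount to less than 1 member, so the count of 0 is not particular to the set. The SD of the members' log2 ratios was 0.22 and that of all genes 0.56. The SD of all genes takes in extreme ratios, with 0.629% of genes below -1.9 and 0.766% above 1.9. Detected members also had a higher median level than detected protein-coding genes (48.0 against 12.2 FPKM). No comparison at matched level was made, so the SDs do not show that the set was unusually steady. Among the members, the largest ratios of (FPKM + 1) were those of SRRM1 (log2 0.51 higher in replicate 2) and RBFOX2 (log2 -0.47, lower in replicate 2). The next were SRSF5 (log2 0.45), RBFOX3 (log2 -0.45) and SRRM2 (log2 0.44). As plain FPKM ratios, replicate 2 over replicate 1, MBNL3 (1.48) and CELF2 (1.47) exceeded SRRM1 (1.44). For replicate 1 over replicate 2, RBFOX3 (1.42) exceeded RBFOX2 (1.39). By non-overlapping bounds alone 29 of the 49 members tested differed, where 54.2% of the 12405 genes did. Both totals take in genes without bounds, which could not be counted as differing, and 48 members had bounds in both libraries.

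**Figure D2:**
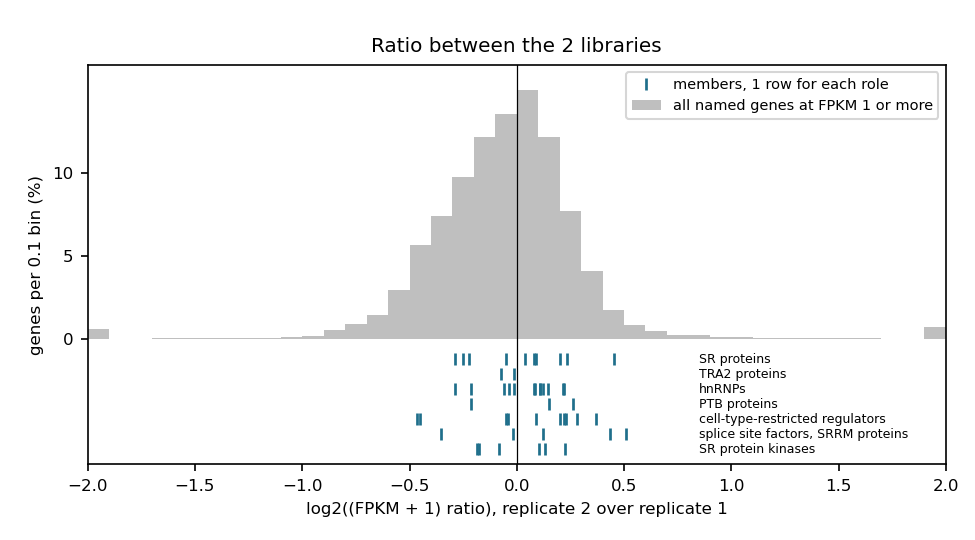
Grey bars give the percentage of the 12405 named genes that reached 1 FPKM in either library, by their log2((FPKM + 1) ratio), replicate 2 over replicate 1, in bins of 0.1, with all values beyond the axis in the end bins. Blue ticks are the 49 members by role, and they lie between -0.47 and 0.51.

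Slightly more members were higher in replicate 2 (28) than in replicate 1 (21), and 44.1% of all genes were higher in replicate 2. The members' median log2 ratio was 0.08 and that of all genes -0.04. The members' transcripts had a lower median GC content, 45.4% against 49.9%, and low GC moved with the ratio across all genes. Genes at or under the median GC content had a median log2 ratio of 0.08, and genes above it had -0.21. Among the members, the 34 at or under that GC content had a median of 0.11 and the 15 above it had -0.02. With trends in transcript length and GC content removed, the members' median was 0.01 and that of all genes 0.00. The trend was fitted to all genes, so the fit itself centres them near 0.

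Transcripts were compared among the reference transcripts, since those assembled in each library carry identifiers that cannot be matched. Over 41 members with a level of at least 5 FPKM in both libraries, a locus of their own and at least 2 reference transcripts, the leading transcript held a median of 67.6% of the reference FPKM in replicate 1 and 70.4% in replicate 2. Over 6166 genes chosen the same way the medians were 80.0% and 81.3%. The median absolute change in that share between the libraries was 3.71 percentage points for the members and 3.59 for all genes.

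The leading reference transcript was the same in both libraries for 39 of the 41 members, and it differed for 2, RBFOX2 and PTBP2, where it differed for 12.3% of all genes. For RBFOX2, XM_006724193.1 (1395 bases) led in replicate 1 at 22.0 FPKM and was listed at 0 in replicate 2. There NM_001082576.1 led at 6.93 FPKM, after 13.3 in replicate 1. Assembled transcripts held 24.9% of the RBFOX2 level in replicate 1 and 79.4% in replicate 2, so most of its replicate 2 level lay outside the reference transcripts. For PTBP2, XM_005271085.1 led in replicate 1 with 4.92 FPKM, and in replicate 2, where it was at 3.56, it was passed by a transcript without a coding accession (2.92 and 4.47 FPKM).

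Reference transcripts without a coding accession were prominent for several of the SR proteins. The tables give such transcripts a running identifier in place of a RefSeq coding accession, and all 4679 transcripts named to microRNA and small nucleolar RNA genes carry one. Among 20 members at 5 FPKM or more that have both kinds and a locus of their own, 9 had at least 10% of their reference FPKM in noncoding transcripts of 200 bases or more in both libraries, where 22.6% of 1451 genes did. The 9 were 5 of the 7 SR proteins that could be read this way and 4 of the 13 other members. SRSF1 was outside the 7 because its replicate 2 locus held several genes. Its 3 noncoding transcripts were at 0 in replicate 1. At 0 in both libraries were 10 of the 20 members and 966 of the 1451 genes.

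**Figure D3:**
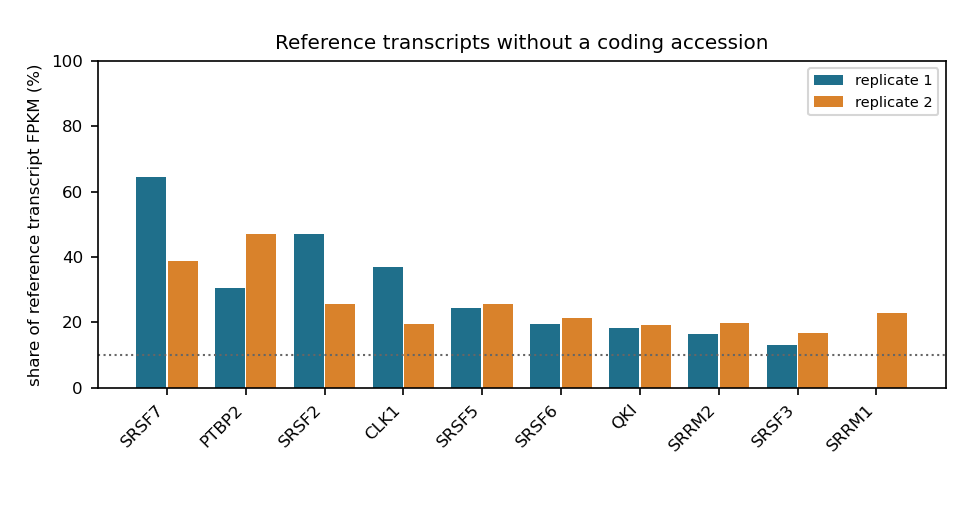
Share (%) of each gene's reference transcript FPKM held by transcripts without a coding accession, for the 10 members at a mean of 5 FPKM or more with a share above 0 in either library. SRSF7 has the highest share in replicate 1, at 64.5%, and the dotted line marks 10%, which every gene shown but SRRM1 passes in both libraries.

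SRSF7 had the highest share in replicate 1. A noncoding transcript of 787 bases held 60.4 FPKM of it in replicate 1 and 31.1 in replicate 2, which was 64.5% and 38.8%. Its coding transcript NM_001031684.2 was at 33.2 and 28.7 FPKM. A second coding transcript, XM_005264486.1, was listed at 0 in replicate 1 and at 20.3 FPKM in replicate 2. The noncoding transcript led in both libraries, by a wide margin in replicate 1 and a narrow one in replicate 2.

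For SRSF2, a noncoding transcript of 1454 bases was at 59.2 FPKM in replicate 1 and 26.4 in replicate 2, or 47.0% and 25.6%. The coding transcript NM_001195427.1 was level, at 66.7 and 66.5 FPKM. The lower SRSF2 gene level in replicate 2 therefore lay in the noncoding transcript, while a further coding form, NM_003016.4, went from a listed 0 to 10.0 FPKM. In SRSF5 the noncoding transcript of 1260 bases was at 25.2 and 36.5 FPKM, a share of 24.4% and 25.7%.

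The remaining members past 10% were steadier except for CLK1 and PTBP2. QKI had a noncoding share of 18.3% in replicate 1 and 19.1% in replicate 2, and SRRM2 had 16.6% and 19.8%. CLK1 had 37.0% and 19.4%, and PTBP2 had 30.6% and 46.9%. SRRM1 was at 0 in replicate 1 and 22.8% in replicate 2, so it passed in 1 library. The 10 members whose noncoding reference transcripts were all listed at 0 in both libraries were SRSF10, SRSF11, HNRNPA1, HNRNPA2B1, HNRNPA3, HNRNPL, PTBP1, SF3B1, CLK2 and SRPK1.

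The printed exons place these transcripts on the gene for SRSF3 and SRSF6. The match rests on equal ends and on a length difference equal to the exon, and no junction reads are in the tables. For SRSF3, the transcript longer by the 456-base exon was at 11.5 FPKM in replicate 1 (bounds 10.8 and 12.2) and 14.1 in replicate 2 (bounds 13.3 and 15.0), and the coding NM_003017.4 was at 76.4 and 70.6. The form with the stop-bearing exon thus made up 13.1% and 16.7% of the pair (14.9% ± 2.53, SD, n = 2). For SRSF6, the form with the 268-base exon was at 11.9 and 13.8 FPKM and NM_006275.5 at 49.1 and 51.3, a share of 19.5% and 21.2% (20.3% ± 1.19, SD, n = 2). Both stop-bearing forms were present in both libraries, and both had bounds above 0.

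Coding exons of HNRNPD were steady between the libraries. The exons of 57 and 147 bases in HNRNPD give rise to the protein isoforms of AUF1. The transcript with both exons, NM_031370.2, was at 86.0 FPKM in replicate 1 and 93.7 in replicate 2. The form that lacks the 57-base exon, NM_031369.2, was at 31.2 and 34.4 FPKM, and the form that lacks the 147-base exon, NM_002138.3, was at 76.5 and 80.6. Beside these partners the full form made up 73.4% and 73.1%, and 52.9% and 53.7%. These are shares of a pair and not exon inclusion over the gene. NM_002138.3 keeps the 57-base exon and NM_031369.2 keeps the 147-base exon, and each is outside the other pair. Both exon lengths are multiples of 3.

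**Figure D4:**
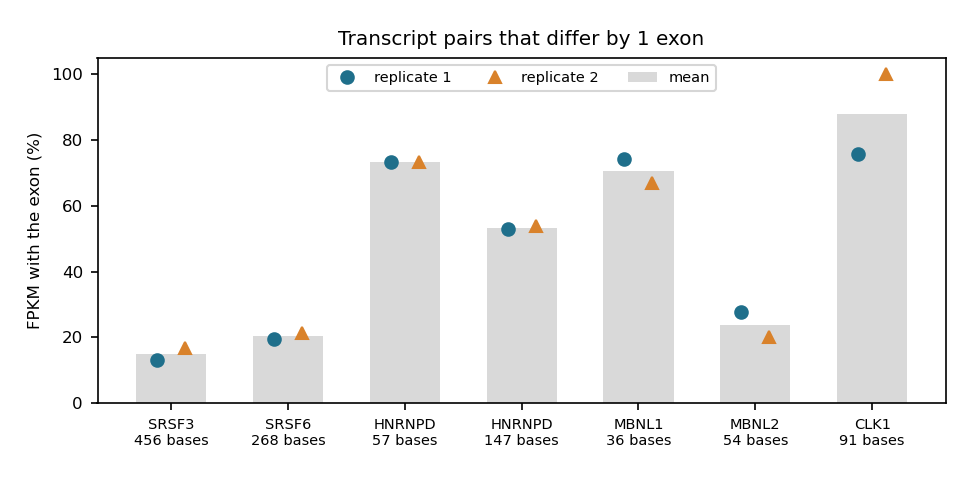
FPKM of the transcript with the exon as a percentage of the pair with and without it, for the 7 printed exons, with replicate 1 as circles, replicate 2 as triangles and the mean as a grey bar. Further transcripts of a gene, where it has any, are outside its pair, so the values are not exon inclusion over the gene. The HNRNPD pairs differ by about 1 percentage point or less between the libraries, and the CLK1 pair moves from 75.9% to 100%.

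The muscleblind and CLK1 pairs were lower in level and moved more. The MBNL1 form with the 36-base exon, XM_005247464.2, was at 17.6 FPKM in replicate 1 and 16.6 in replicate 2, and its partner XM_005247466.2 at 6.17 and 8.24, which gave 74.1% and 66.8%. In MBNL2 the 54-base exon, known to favour a nuclear protein, was in the minor form XM_005254021.1 at 3.55 and 2.93 FPKM. Its partner XM_005254022.1 was at 9.31 and 11.7, which gave 27.6% and 20.0%. Loss of the 91-base exon of CLK1 shifts the reading frame, and the skipped form is known to lack the kinase domain. That form was at 1.27 FPKM in replicate 1 and was listed at 0 in replicate 2, beside 4.001 and 5.69 FPKM for NM_004071.3. A second CLK1 transcript without a coding accession, of 3333 bases, was at 1.08 and 1.37 FPKM.

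Other genes of splicing were read from 5 lists with 150 genes, of which 149 had usable values and 136 were detected in both libraries. By the rule used for the members, 0 of these 136 differed between the libraries, against 1.16% of all genes. Their median log2 ratio was -0.02, with 64 higher in replicate 2 and 72 higher in replicate 1. Among the members 57.1% were higher in replicate 2.

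In the list of U1 snRNP, Sm and branch point factors, 36 of 37 genes were measured and all 36 were detected, the exception being DDX39B, whose estimate failed. The Sm proteins SNRPD2 (267 and 196 FPKM), SNRPG (228 and 195) and SNRPB (153 and 111) were highest, and SUGP1 (12.6 and 10.7), ZRSR2 (3.28 and 3.89) and U2AF1L4 (3.13 and 1.43) were lowest. ZRSR2 and U2AF1L4 are relatives of U2AF1, and both were far below U2AF2. In the list of tri-snRNP, catalytic step and exon junction factors, 42 of 43 genes were detected. LSM3 (120 and 106 FPKM), the helicase SNRNP200 (98.2 and 103) and TXNL4A (101 and 82.5) led, and ISY1 (4.39 and 3.87) and LSM8 (1.502 and 1.52) were lowest of those detected. ISY1 overlaps ISY1-RAB43, and how reads were divided between them was not tested. BUD31 was listed at 0 in both libraries, at a locus that overlaps PDAP1 and PTCD1.

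Of the 20 other SR-related proteins and SR kinases, 17 were detected. RNPS1 (92.0 and 73.0 FPKM), THRAP3 (63.3 and 73.3) and SRRT (53.4 and 57.3) were highest. SRPK3, a kinase of muscle, was at 0.151 and 0.208 FPKM, SRSF12 at 0.012 and 0.027, and SRRM4, the neuronal microexon regulator, at 0.011 and 0.016. Of the 40 other hnRNPs and RNA-binding regulators, 31 were detected. PCBP2 (337 and 216 FPKM), RALY (260 and 217) and NONO (238 and 222) were highest. Those under 1 FPKM in both libraries were CELF5, RBM20, KHDRBS2, CELF4, CELF6, CELF3, RALYL, PCBP3 and HNRNPCL1. By locus level, CELF1 and CELF2 among the members were above each of CELF3 to CELF6 in both libraries. In replicate 1, 63.8% of the CELF2 level came from assembled transcripts. Its reference transcripts there summed to 0.311 FPKM, below the CELF5 level of 0.560.

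All 10 nonsense-mediated decay factors were detected, with mean levels from UPF3B, at 7.78 and 8.07 FPKM, to SMG9, at 36.2 and 30.0. UPF3A (28.7 and 33.7) and SMG5 (31.3 and 27.1) followed SMG9 by mean level, with UPF3A above SMG9 in replicate 2. The helicase UPF1 was at 19.1 and 17.3 FPKM, SMG8 at 12.4 and 12.7, and the kinase SMG1 at 9.57 and 14.0.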

How the data were processed

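Poly(A) RNA of 2 libraries of 1 group was measured, per the labels. Cufflinks 2.2.1, TopHat2 2.0.13 with Bowtie2 2.2.3, FastQC 0.11.2 and Trimmomatic 0.32, and build GRCh38, are named in the submitters' processing notes. Their settings were not given in the sources used here. The authors deposited FPKM, its confidence bounds and a status flag per gene and per transcript, together with each transcript's read coverage, per the file headers. Each library was assembled on its own (56294 and 66625 gene entries).

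Reference transcripts were named by accession (46560) or by the files (20694). A gene's level is its locus FPKM, assembled transcripts included. Where a locus held several symbols (SRSF1 in replicate 2, HNRNPH2), reference transcripts named to the gene were summed, without bounds. Entries of failed status were left out of counts, ratios and orders. Ratios are log2 of (FPKM + 1), which understates changes of genes with low FPKM. GC content came from GENCODE 29 transcripts and was had for 91.0% of genes. The confidence bounds describe estimation inside 1 library and say nothing of the spread between the 2, and depth is known only in relative terms.

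Members and lists were chosen with earlier results of these data known. Named were all members, transcripts of members whose leader differed or whose noncoding share was 10% or more in both libraries, and in other lists the 3 highest, the 3 lowest and those under 1 FPKM. The exon pairs were chosen after their values were seen, as were the further genes named (UPF1, and the reference transcripts listed at 0). Alternatives changed the pseudocount, filters, scaling, bounds, transcripts summed and trends, and left out each library. Python 3.11.15, pandas 2.3.3, numpy 2.4.6 and matplotlib 3.10.9 were used, and the calling rule was run on simulated data. The simulated noise was scaled to the bounds inside 1 library, so that run does not cover the spread between libraries. Sequences came from GENCODE 29 transcripts, and no protein sequence was used here. One further exon pair is not reported here.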

Additional observations from a re-analysis of the deposited data

How the results depend on the processing

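The count of members detected lay between 44 and 50 under a threshold of 0.5 or 5 FPKM, a lower bound above 0, reference transcripts alone or entries of any status, and between 48 and 49 with 1 library left out. The count of members differing stayed at 0 with a pseudocount of 0.1 or 0.5, other filters, rescaling, a 1.5-fold change with bounds apart, and members free of overlaps. It moved to 29 with bounds apart alone, where 54.2% of all genes were counted, and to 2 (RBFOX2 and NOVA2) by fold alone on summed reference transcripts, where 5.11% were; the cause was not tested. Rescaling to a common sum moved the median of all genes from -0.04 to 0.12 and that of the members from 0.08 to 0.26. The members' median stayed above that of all genes under each alternative. The gap was least with length and GC trends removed (0.01 against 0.00, where the fit itself centres all genes near 0). The median leading share was also taken over all members with a usable share, low levels and single reference transcripts included. This set is wider than the 41 members above. With each member's share averaged over both libraries, the median was 69.0% on all transcripts and 72.4% on reference transcripts. On all transcripts it ranged from 64.7% to 67.6% with 1 library left out. Members past a noncoding share of 10% numbered 9 or 10, paralog families of 1 order 12 or 13 (13 of 14 with failed and listed-at-0 members included, an alternative chosen after seeing the data), and other splicing genes detected 130 to 136. The family counts with 1 library left out, 12 and 13, cannot measure agreement between the libraries. Of 55 levels, 7 moved by more than 1 SD when reference transcripts alone were summed. No paired analysis was possible because the design holds 1 group. Depth per library is unknown in absolute terms, so no floor can be set for genes listed at 0.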
